A study of Homo sapiens with 6 samples.

Results

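The genes described are APLNR, the apelin receptor, and the genes of its peptide ligands, APLN (apelin) and APELA (ELABELA, also called Toddler). These are 3 of the 59653 gene symbols in the count table. APLNR was chosen for its increase after SOX2 siRNA in these same libraries, so its change is given as a description with no test, and the ligands were taken in because they bind it, not for their values. All 3 were among the 17592 genes with enough counts to be tested. The cells were PA1, an established human ovarian teratocarcinoma line, labelled wildtype in both groups and carrying no transgene in the labels. One group (control siRNA, 3 libraries) received a negative silencer siRNA and the other (SOX2 siRNA, 3 libraries) received siRNA against the transcription factor SOX2, both from Ambion; 2 SOX2 siRNAs are named, and whether they were pooled is not given in the sources used here. Transfected cells spent 24 h attached to plastic, then 72 h on poly-HEMA, a coating that keeps cells from attaching, before RNA was taken. All 6 libraries therefore come from transfected, unattached cells of 1 line, and no untransfected or attached cells are among them.

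The apelin receptor is a G protein-coupled receptor of the rhodopsin class. It couples mainly to inhibitory G proteins, which lower cyclic AMP, and is switched off by receptor kinases and arrestins. In the early embryo ELABELA acts through it in the movement and specification of mesendoderm and heart precursors, and in the adult apelin acts through it on blood vessels and heart muscle. In human pluripotent cells ELABELA is secreted, and effects of it that do not need the receptor have been described.

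Both ligands are made as short precursors and act through their C-terminal ends. Their coding sequences are shown because the ligands are unlike in sequence and size although they share a receptor. Capitals mark the codons of the C-terminal peptide, the last 32 codons of APELA and the last 13 of APLN (apelin-13). Both are read from GENCODE 29 transcripts, 5′ to 3′.

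APELA: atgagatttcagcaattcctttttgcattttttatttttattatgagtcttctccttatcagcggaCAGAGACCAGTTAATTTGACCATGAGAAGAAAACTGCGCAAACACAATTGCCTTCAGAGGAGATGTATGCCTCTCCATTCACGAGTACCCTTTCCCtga

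APLN: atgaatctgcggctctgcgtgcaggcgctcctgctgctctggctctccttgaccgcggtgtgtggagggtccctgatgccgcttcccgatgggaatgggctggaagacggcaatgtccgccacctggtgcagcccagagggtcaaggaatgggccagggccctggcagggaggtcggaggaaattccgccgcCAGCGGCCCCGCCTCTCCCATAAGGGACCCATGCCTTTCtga

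APELA had 165 coding bases with the stop codon, 54 codons and a GC content of 39.4%. APLN had 234 bases, 77 codons and a GC content of 65.4%. The capitals of APELA held 9 arginine or lysine codons and 2 cysteine codons, and those of APLN held 3 arginine or lysine codons and 0 cysteine codons. In GENCODE 29 (GRCh38) APLNR (ENSG00000134817.10) lay at chr11:57233577-57237314 on the minus strand, APLN (ENSG00000171388.11) at chrX:129645259-129654937 on the minus strand and APELA (ENSG00000248329.5) at chr4:164877004-164898965 on the plus strand. Their merged exons came to 3738, 3205 and 3089 bases, and none overlapped an exon of another gene on either strand.

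Library totals ranged from 25152313 to 32753184 counts. In control libraries SOX2 itself was at 245.2, 265.3 and 255.8 CPM (counts relative to the scaled library total), and after SOX2 siRNA at 51.81, 54.93 and 50.64 CPM, a log2 change of -2.28 (SE 0.0437, edgeR adjusted p = 5.97e-16). A gene is called higher or lower here where edgeR's quasi-likelihood test gave a Benjamini-Hochberg adjusted p under 0.05 over all tested genes. By that rule 28.2% of tested genes were called, 14.8% higher and 13.4% lower, and the median log2 change over all tested genes was -0.000851. The labels do not say that the replicates were separate cultures, so p-values measure only the spread between these libraries. Of 12 embryonal carcinoma markers POU5F1 (300.9 ± 18.6 CPM in control, SD, n = 3) and LIN28A (706 ± 3.61) were abundant, while ZFP42 had at most 1 count and TDGF1 at most 3 counts in any library.

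APLNR was the most abundant of the 3 and was higher in all SOX2 siRNA libraries. In bulk RNA, more cells that express a gene and more of its RNA per cell cannot be told apart, nor can fewer and less. Control replicates 1, 2 and 3 held 1327, 939 and 1142 counts, and SOX2 siRNA replicates 1, 2 and 3 held 6031, 6651 and 6663. The same libraries stood at 40.2, 37.48 and 39.5 CPM and at 199.8, 205.7 and 223 CPM. All 3 SOX2 siRNA libraries were above all 3 control libraries, with no overlap. The share of all tested genes without overlap was not counted. The group means were 39.06 ± 1.42 and 209.5 ± 12.1 CPM (SD, n = 3 each), 5.36-fold apart, a log2 change of 2.42 (SE 0.0481). These are the values that chose the gene, and no p-value is attached to them. Counted from the largest increase, the log2 change was number 36 of 17592, and number 9 among the 12119 genes averaging log2 CPM 2 or more.

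**Figure D1:**
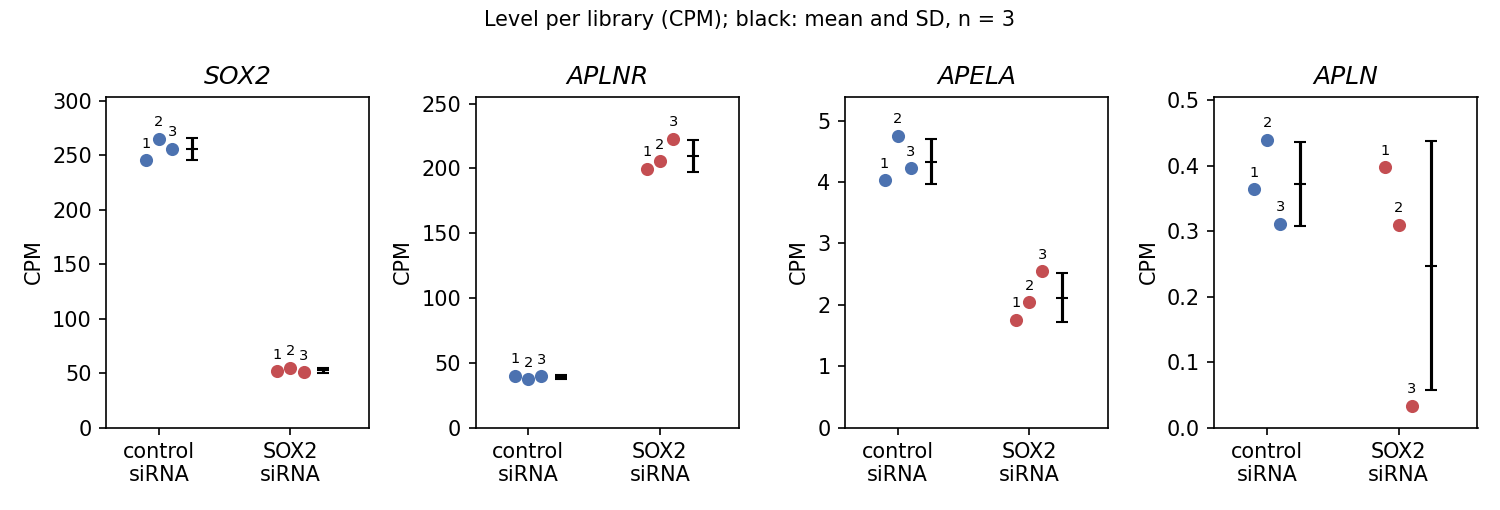
Level of SOX2, APLNR, APELA and APLN in CPM (vertical axes, each with its own scale), by group, with 1 numbered point per library and the group mean and SD in black. APLNR sits at 37.48 to 40.2 CPM in control and 199.8 to 223 CPM after SOX2 siRNA, APELA moves the other way without overlap, and the APLN groups overlap.

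APELA was lower after SOX2 siRNA. Control libraries 1, 2 and 3 held 133, 119 and 122 counts of it, against 53, 66 and 76 after SOX2 siRNA. In CPM these were 4.03, 4.75 and 4.22 against 1.756, 2.041 and 2.544. Every control library was above every SOX2 siRNA library. Genes that were not called, such as the receptor kinase gene GRK2, could also lack overlap. The means were 4.333 ± 0.373 and 2.114 ± 0.399 CPM (SD, n = 3 each), a 0.488-fold level and a log2 change of -1.03 (SE 0.16, edgeR adjusted p = 9.57e-05). The exact two-sided permutation test over the 6 libraries gave p = 0.1, the smallest that 3 against 3 allows. Summed over libraries the groups held 374 and 195 counts, a depth-adjusted ratio of 0.491 with a 95% interval of 0.411 to 0.585 that covers counting error only.

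APLN had few counts in every library. Control libraries 1, 2 and 3 held 12, 11 and 9 counts of it, against 12, 10 and 1 after SOX2 siRNA. These were 0.3636, 0.4391 and 0.3113 CPM against 0.3975, 0.3093 and 0.03347 CPM, where 3 counts equal 0.0909 to 0.12 CPM. The groups overlapped, and SOX2 siRNA replicate 3 was below the other 5 libraries. Its 1 count has an exact Poisson 95% interval of 0.0253 to 5.57, and the lowest count elsewhere, 9 in control replicate 3, has one of 4.12 to 17.1. The means were 0.3713 ± 0.0642 and 0.2467 ± 0.19 CPM (SD, n = 3 each), a log2 change of -0.56 (SE 0.52, edgeR adjusted p = 0.473, exact permutation p = 0.4). Without SOX2 siRNA replicate 3 the log2 change was -0.07 (edgeR adjusted p = 0.940). The summed counts of 32 and 23 gave a ratio of 0.677 (95% interval 0.378 to 1.19, counting error only), so no change of APLN was detected. Of the 2 ligands, 1 was called lower, beside 13.4% of all tested genes.

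Scaled to exon length, the order of the members was APLNR, APELA, APLN in every library. In CPM per kilobase of exon, APLNR was at 10.8, 10 and 10.6 in control and 53.4, 55 and 59.7 after SOX2 siRNA. APELA was at 1.3, 1.54 and 1.37 and then at 0.568, 0.661 and 0.824. APLN was at 0.113, 0.137 and 0.0971 and then at 0.124, 0.0965 and 0.0104. No neighbouring pair in that order overlapped within either group. Among the 17209 tested genes with an exon length, the mean level of APLNR was number 4360 from the top in control and number 566 after SOX2 siRNA. APELA went from number 11883 to 13629 and APLN from 16598 to 16867. The receptor's level per kilobase was 8.25, 6.52 and 7.74 times that of APELA in control replicates 1 to 3 and 94, 83.3 and 72.4 times after SOX2 siRNA. This ratio contains the value that chose APLNR and is a description.

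**Figure D2:**
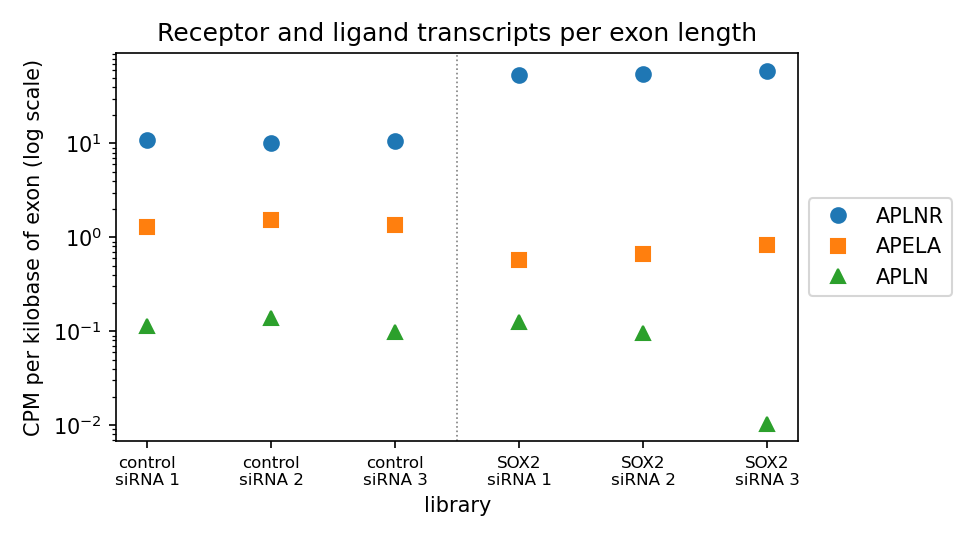
CPM per kilobase of exon for the 3 genes in each library, on a log vertical axis, with 1 point per library. APLNR lies above APELA and APELA above APLN in all 6 libraries, and the distance between receptor and APELA is wider in the SOX2 siRNA libraries.

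The ratio of the ligands does not depend on library scaling. Control libraries held 11.1, 10.8 and 13.6 times as many APELA as APLN counts, and SOX2 siRNA libraries 4.42, 6.6 and 76 times. The 76 rests on the single APLN count of replicate 3. On the log2 scale the means were 3.56 ± 0.18 and 3.7 ± 2.22 (SD, n = 3 each), a difference of 0.15 (exact two-sided permutation p = 1, smallest possible 0.1). Without SOX2 siRNA replicate 3 the difference was -1.12.

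The chromosomal neighbours were taken by position and not by their change. Each was the nearest protein-coding gene on its side that passed a set minimum of counts summed over the 6 libraries. LRRC55, 41859 bases from APLNR, went from 13.91 ± 0.42 to 29.36 ± 0.678 CPM (SD, n = 3 each), a log2 change of 1.08 (SE 0.0587, edgeR adjusted p = 2.36e-10). On the other side TNKS1BP1, 62323 bases away, changed by -0.06 (edgeR adjusted p = 0.336). Beside APLN, OCRL, an inositol phosphatase gene, rose by 0.13 (edgeR adjusted p = 0.0118) and XPNPEP2 was at -0.25 (0.599). Beside APELA, MARCHF1 was at 0.04 and FAM218A at 0.15, with edgeR adjusted p-values of 0.868 and 0.562. LRRC55 was the neighbour with the largest log2 change of the 6.

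The RefSeq promoter table (GRCh38.p14) held APELA and APLN. The letters CTTTGT and CATTGT, the core of many SOX protein sites, were searched on both strands of the 250 bases before the start, and 21.2% of 35116 promoters held at least 1 match. APELA held 1 match and APLN held 2. The APELA match is shown because it is the one nearest to a start in a member that fell, at bases 8 to 3 before the RefSeq start. The window is chr4:164877148-164877177 on the plus strand, with the match in capitals, and it lies inside the GENCODE 29 extent of the gene.

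APELA window: ccacagcacagagcaccggcaaCTTTGTct

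The letters ACGTG and GCGTG, the core of hypoxia response elements, occurred in 43.2% of promoters, with 1 match for APELA and 2 for APLN, and none of these overlapped a SOX match. A match of letters is a description, not a binding site.

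The receptor passes its signal to G proteins, and the alpha subunits changed little. Of 10 tested, 4 were called higher and 0 lower (40%, beside 28.2% of all tested genes), with a median log2 change of 0.07. The inhibitory subunits were GNAI1 at -0.07 (edgeR adjusted p = 0.338), GNAI2 at 0.12 (0.0146; 249.4 ± 6.76 to 271.6 ± 5.72 CPM) and GNAI3 at 0.05 (0.338). GNAS, the stimulatory subunit, rose by 0.15 (edgeR adjusted p = 0.00316) and GNA11, of the Gq class, by 0.15 (0.0255). The count of 4 was 1 without control replicate 2 or without SOX2 siRNA replicate 2, and 2 without SOX2 siRNA replicate 3, and the calls of GNAI2 and GNA11 were among those lost.

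Receptor kinases and arrestins, which end receptor signalling, had 2 called higher and 1 lower of 7 tested (median 0.09). This was 42.9%, beside 28.2% of all tested genes. GRK5, a membrane-bound receptor kinase, had 395, 343 and 399 counts in control and 812, 911 and 832 after SOX2 siRNA, 13.15 ± 1.03 against 27.64 ± 0.663 CPM (log2 change 1.08, SE 0.0664, edgeR adjusted p = 1.34e-09). ARRB1 (beta-arrestin 1) rose by 0.24 (edgeR adjusted p = 0.00348) and GRK3 fell by 0.16 (0.00652). ARRB2 was at -0.10 (0.153) and GRK2 at 0.09 (0.217), neither called.

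Adenylyl cyclases make cyclic AMP, which inhibitory G proteins hold down. All 7 tested of 9 listed were called, 6 higher and 1 lower, with a median of 0.48. Over all tested genes 28.2% were called. ADCY6 rose from 49.03 ± 0.829 to 68.43 ± 1.61 CPM (0.48, edgeR adjusted p = 1.38e-07) and ADCY2 from 4.011 ± 0.285 to 8.275 ± 0.146 CPM (1.04, 5.23e-07), while ADCY1, a calcium-stimulated form, fell from 9.234 ± 0.696 to 5.955 ± 0.317 CPM (-0.63, 8.32e-05). RGS proteins speed the shut-off of G proteins, and 5 of 14 tested were called higher and 2 lower (50% called, median 0.27). RGS8 had 42, 22 and 39 counts in control and 370, 452 and 324 after SOX2 siRNA, a log2 change of 3.39 (edgeR adjusted p = 1.84e-11). RGS16 rose by 1.72 (edgeR adjusted p = 1.41e-10) and RGS5, known from pericytes, by 0.80 (1.92e-10).

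**Figure D3:**
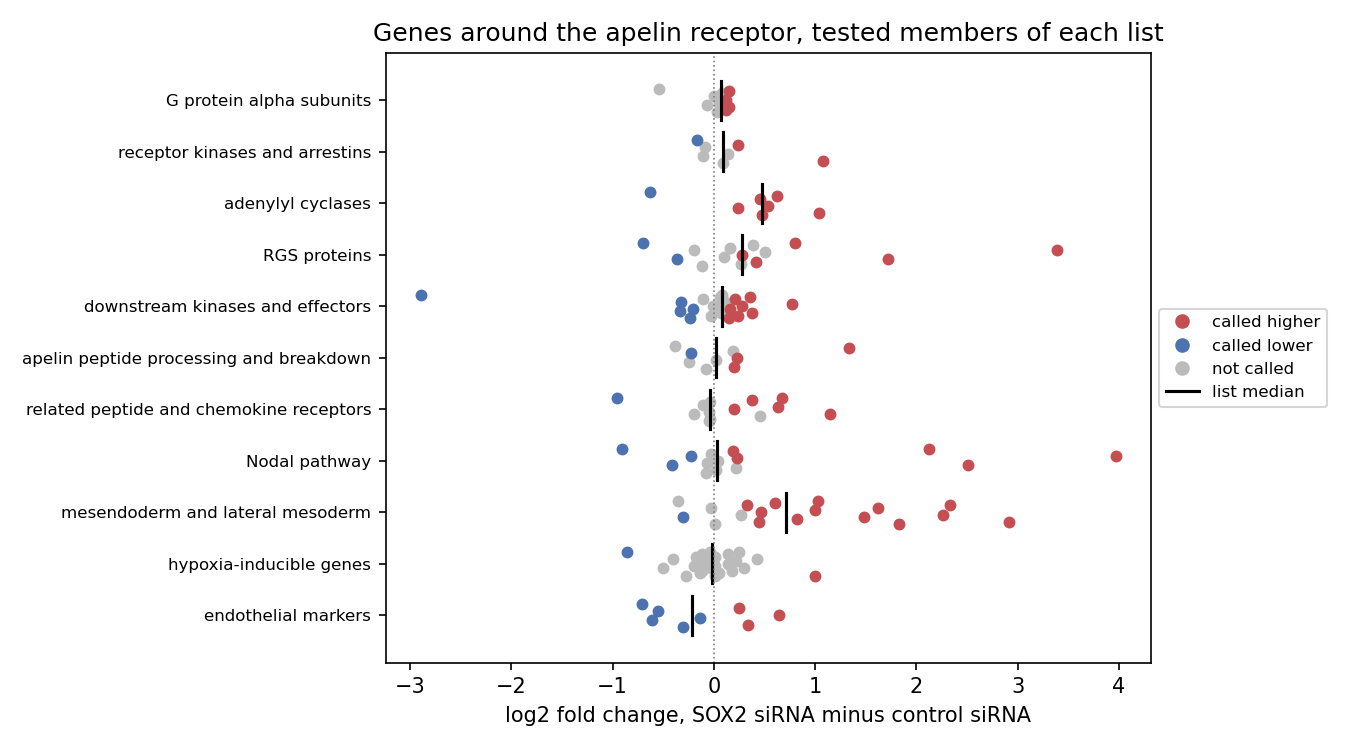
Log2 change of each tested gene (points) for the listed gene groups, SOX2 siRNA against control, red where called higher, blue where called lower and grey where not called, with the median of each list as a black line. The adenylyl cyclase and mesendoderm lists have medians of 0.48 and 0.71, beside -0.000851 over all tested genes, and the hypoxia list has a median of -0.02.

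Among genes that process or break down the peptides, 3 of 9 tested were called higher and 1 lower (median 0.02). This was 44.4%, beside 28.2% of all tested genes. FURIN, a convertase that cuts precursors after basic residues, rose from 90.77 ± 4.47 to 106.3 ± 2.49 CPM (0.23, edgeR adjusted p = 5.86e-04), and PCSK7 rose by 0.20 (0.00175). PCSK6 fell from 35.63 ± 1.1 to 30.44 ± 0.974 CPM (edgeR adjusted p = 0.00287). MME (neprilysin), a peptidase that cleaves apelin, had 2, 0 and 1 counts in control and 2, 3 and 49 after SOX2 siRNA and was not tested. The 49 counts were in SOX2 siRNA replicate 3, the library with 1 APLN count.

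Downstream kinases and effectors had 8 called higher and 5 lower of 22 tested (59.1%, beside 28.2% of all tested genes, median 0.08). AKT1, a survival kinase, rose from 78.17 ± 4.5 to 101.9 ± 1.44 CPM (0.38, edgeR adjusted p = 3.59e-06). PIK3R5, a regulatory subunit of the G protein-activated PI3 kinase, had 51, 24 and 48 counts in control and 7, 4 and 6 after SOX2 siRNA (edgeR adjusted p = 4.72e-06). YAP1, a transcriptional coactivator, fell by 0.24 (edgeR adjusted p = 6.7e-05).

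Related receptors for peptides, chemokines and lipids gave 5 called higher and 1 lower of 13 tested (46.2%, beside 28.2% of all tested genes). The median was -0.04, and 3 of the 20 listed were at 0 in every library. EDNRB, an endothelin receptor, fell from 366 ± 12 to 188.2 ± 7.03 CPM (-0.96, edgeR adjusted p = 3.95e-12). LPAR1 and S1PR2, lipid receptors, rose by 0.67 (edgeR adjusted p = 3.83e-05) and 0.64 (7.62e-05). AGTR1, an angiotensin receptor related in sequence to APLNR, had 5, 2 and 0 counts in control and 1, 0 and 4 after SOX2 siRNA. CXCR4 had 5 to 10 counts in every library and neither was tested. ACKR3, a chemokine scavenger receptor, was at -0.19 (edgeR adjusted p = 0.739).

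In the embryo APLNR is expressed in mesendoderm, where Nodal signalling acts, so these genes were listed beside it. Of 30 listed mesendoderm and lateral mesoderm genes 18 were tested. Of these, 13 were called higher and 1 lower (77.8%, beside 28.2% of all tested genes, median 0.71). EOMES, a mesendoderm transcription factor, rose from 4.57 ± 0.33 to 34.5 ± 2.14 CPM (2.92, edgeR adjusted p = 2.01e-14), and MIXL1 from 1.853 ± 0.37 to 8.882 ± 1 CPM (2.26, 1.99e-09). FOXC1, of paraxial mesoderm, rose from 30.74 ± 0.602 to 109.2 ± 3.04 CPM (1.83, edgeR adjusted p = 4.03e-15), and SNAI2, a repressor of epithelial genes, by 1.49 (1.36e-09). TBXT (brachyury) was at 0 counts in all 6 libraries, and KDR, a receptor of vascular and mesodermal precursors, fell from 14.37 ± 0.402 to 11.66 ± 0.252 CPM (-0.30, edgeR adjusted p = 0.00348). Listed genes with too few counts to be tested went both ways. GATA5 had 15, 10 and 5 counts in control and 4, 4 and 1 after SOX2 siRNA. ISL1 had 17, 7 and 12 and then 4, 4 and 8, and NKX2-5 had 10, 13 and 8 and then 2, 5 and 6. MESP1 had 2, 3 and 4 and then 5, 7 and 10. The list was written with earlier results of these data known, in which mesendoderm genes already appeared, and is not independent evidence of a direction.

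In the Nodal list 5 of 14 tested were called higher and 3 lower (57.1%, beside 28.2% of all tested genes, median 0.03). CER1, a secreted antagonist of Nodal, rose from 3.596 ± 0.373 to 20.39 ± 0.453 CPM (2.51, edgeR adjusted p = 5.39e-13). FOXH1, a SMAD partner, fell from 6.87 ± 0.583 to 3.675 ± 0.228 CPM (-0.90, edgeR adjusted p = 1.07e-05). CFC1, a Nodal coreceptor, had 2, 5 and 0 counts in control and 37, 42 and 44 after SOX2 siRNA (edgeR adjusted p = 1.2e-05), and reads shared with its near copy CFC1B are uncertain. NODAL had 0 to 3 counts and TDGF1 0 to 3 counts in any library and were not tested.

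The genes whose pattern over the 6 libraries was most like that of APLNR were taken among 12118 tested genes averaging log2 CPM 2 or more, by the root-mean-square difference of centred log2 CPM. RDH10, a retinol dehydrogenase of retinoic acid synthesis, was nearest at 0.0563, with 19.33, 19.52 and 20.13 CPM in control and 93.81, 99.4 and 105.4 after SOX2 siRNA. BGN (biglycan, a matrix proteoglycan) followed at 0.0741, then SLC13A4 (an anion transporter) at 0.116, CER1 at 0.12, LIPG (endothelial lipase) at 0.166 and MIXL1 at 0.197. All genes in this paragraph were chosen by likeness to a member, so sharing its direction is no result. Nearest to APELA were TNFRSF11A (the receptor RANK) at 0.0704, HDAC9 at 0.119 and ERC2 at 0.123, with log2 changes of -0.96, -0.89 and -1.17. Nearest to APLN were CABP1 at 0.349, C4orf47 at 0.357 and ARFGEF3 at 0.38, farther than for the other members.

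**Figure D4:**
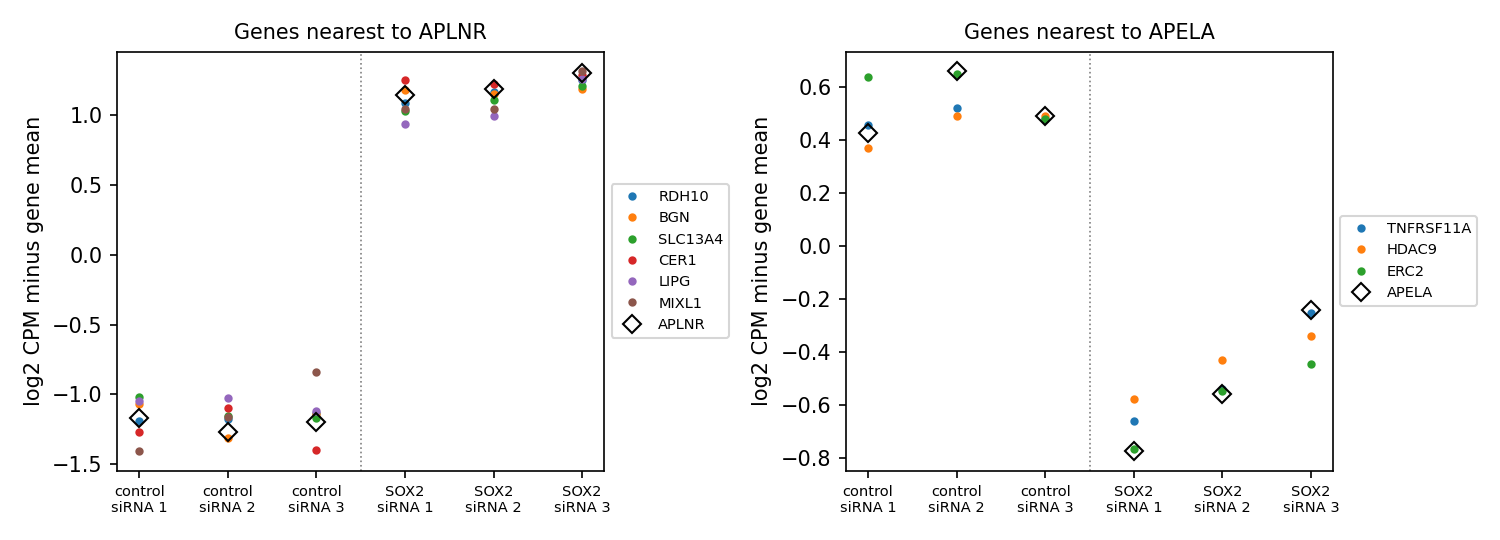
Log2 CPM of APLNR (left) and APELA (right) and of their nearest genes in each of the 6 libraries, centred on each gene's own mean (vertical axis), with open diamonds for the members and coloured points for the other genes. The points of the 6 genes lie around the APLNR diamonds and those of the 3 genes around the APELA diamonds in both groups, as they were chosen to.

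All 3 genes nearest to APLN were lowest in SOX2 siRNA replicate 3, where CABP1 was at 1.741 CPM, C4orf47 at 1.808 and ARFGEF3 at 2.644. In SOX2 siRNA replicate 1 they were at 5.532, 5.201 and 7.519 CPM. None was called with all 6 libraries. They were chosen for likeness to APLN, so their low level in replicate 3 is no result.

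APLN is known as a hypoxia-inducible gene, so 26 other hypoxia-inducible genes were followed across the libraries. Of the 26, 1 was called higher and 1 lower, 7.69% beside 28.2% of all tested genes, and the count was 4 without SOX2 siRNA replicate 1. Their mean log2 difference from the control mean, with 0.5 CPM added to each level, was -0.13, -0.04 and 0.17 in the control libraries, against 0.40, -0.09 and -0.54 for SOX2 siRNA replicates 1, 2 and 3. The SOX2 siRNA libraries lay on both sides of the control libraries. VEGFA, a vascular growth factor, had 847, 612 and 853 counts in control and 1362, 871 and 480 after SOX2 siRNA. NDRG1 had 1351, 1092 and 1630 and then 2771, 1520 and 627, and CA9, a carbonic anhydrase, 181, 121 and 207 and then 258, 113 and 37. In each of the 3 genes SOX2 siRNA replicate 1 was the highest library and replicate 3 the lowest. ADM (adrenomedullin) was called lower, from 18.75 ± 0.548 to 10.34 ± 1.92 CPM (-0.86, edgeR adjusted p = 4.48e-05), and CA12 was called higher, from 2.19 ± 0.0735 to 4.381 ± 0.6 CPM (6.48e-05). SOX2 siRNA replicate 3 was also the library with 1 APLN count. Replicate 1 of that group, highest for the hypoxia list, had 12 APLN counts, within the 9 to 12 of control. The part of this library spread in the APLN value was not tested.

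**Figure D5:**
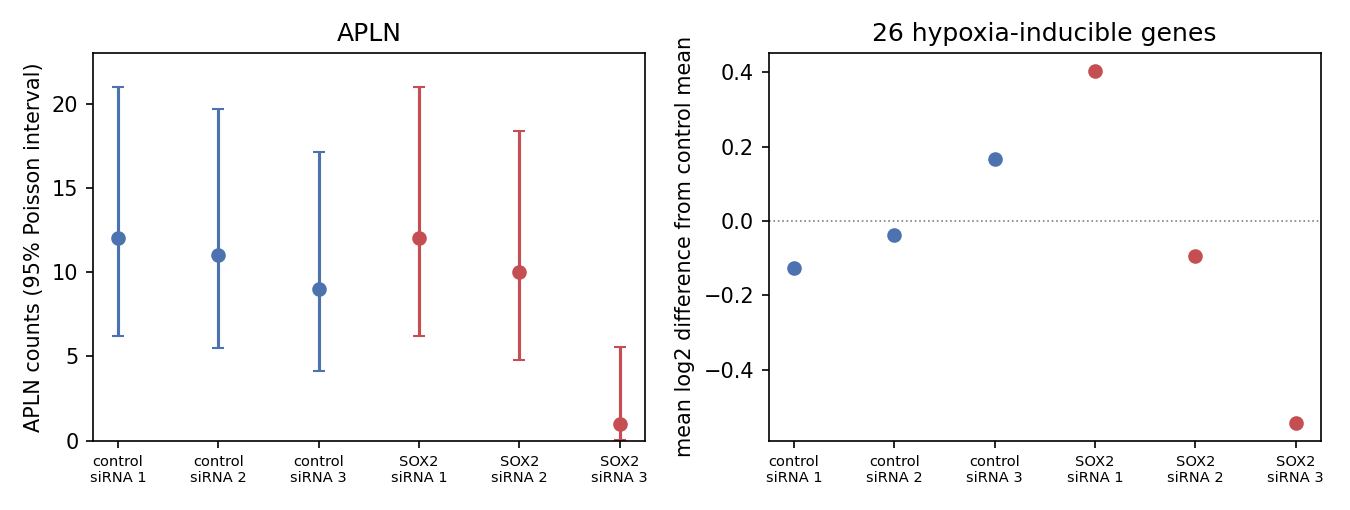
APLN counts per library with exact Poisson 95% intervals (left) and the mean log2 difference of the 26 hypoxia-inducible genes from the control mean per library (right), blue for control siRNA and red for SOX2 siRNA. SOX2 siRNA replicate 3 is the lowest library in both panels, at 1 count and at -0.54. SOX2 siRNA replicate 1, the highest in the right panel at 0.40, has 12 APLN counts, within the 9 to 12 of control.

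APLNR is also a marker of endothelial cells, whose genes were checked in the same libraries. The summed level of the 12 endothelial markers was 151.8 to 157.4 CPM in control and 128.2 to 130.8 CPM after SOX2 siRNA. All 8 tested were called, beside 28.2% of all tested genes, 5 lower and 3 higher (5 called by DESeq2's Wald test). PECAM1 fell from 64.19 ± 1.48 to 43.72 ± 0.545 CPM (-0.55, edgeR adjusted p = 2.69e-08), and CDH5 fell by 0.71 (5.49e-05). ESAM rose by 0.65 (edgeR adjusted p = 0.00127), EGFL7 by 0.34 (0.0175) and TIE1 by 0.25 (0.00757). CLDN5 was at 0 counts in all 6 libraries, ERG at 0 in 5 of 6 and EMCN at 0 in 4 of 6. The part of these markers in the APLNR value was not tested.

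The 10 fibroblast and mural markers summed to 536.6 to 600.2 CPM in control and 726.7 to 767.2 CPM after SOX2 siRNA. Of 8 tested, 3 were called higher and 0 lower (37.5%, beside 28.2% of all tested genes, median 0.14). PDGFRB, a growth factor receptor of mural cells, rose from 28.56 ± 0.999 to 106.2 ± 0.388 CPM (1.89, edgeR adjusted p = 2.68e-15). THY1 rose by 0.19 (edgeR adjusted p = 0.00773) and COL1A1 by 0.34 (0.0189), the latter call lost without control replicate 1 or SOX2 siRNA replicate 3. DCN had at most 4 counts and COL3A1 at most 8 counts in any library. Their part in the APLNR value was not tested either.

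Blood cell markers had 2 of 8 tested and 1 called (50%, beside 28.2% of all tested genes). This was CD14, called higher (0.87, edgeR adjusted p = 0.0428), a call lost when any 1 library was left out. HBB was at 0 counts in all 6 libraries and PTPRC at 0 to 3. LYZ (lysozyme), the other tested marker, had 481, 348 and 61 counts in control and 542, 48 and 364 after SOX2 siRNA (log2 change 0.04, edgeR adjusted p = 0.986). Control replicate 3 and SOX2 siRNA replicate 2 were far below the other 4 libraries. Of 8 cardiomyocyte markers 2 were tested and 0 called, beside 28.2% of all tested genes. The number called was 1 by limma-voom and 2 without SOX2 siRNA replicate 1. NPPA was at 0 counts in every library. The 12 embryonal carcinoma markers summed to 2843 to 2906 CPM in control and 2830 to 2900 CPM after SOX2 siRNA. In this sum falls and rises offset each other. Of 10 tested, 4 were called higher and 2 lower (60%, beside 28.2% of all tested genes). PODXL, a surface sialomucin, fell from 1316 ± 15 to 671.2 ± 25.1 CPM (-0.97, edgeR adjusted p = 9.54e-13), while LIN28A rose by 0.70 (1.8e-11) and LIN28B by 0.59 (5.09e-09). NANOG, the other marker called lower, had 28, 17 and 27 counts in control and 7, 8 and 5 after SOX2 siRNA (-1.91, edgeR adjusted p = 3.08e-04).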

How the data were processed

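Messenger RNA of 6 PA1 libraries was sequenced after KAPA mRNA HyperPrep preparation, per the labels. The authors deposited raw read counts per gene symbol, whole numbers with unequal totals. The submitters' processing notes name bcl2fastq 2.20.0, STAR 2.7.3a, Salmon 0.14.1, DESeq2 1.28.1 and GRCh38.p13, with no role or order. The annotation and the use of strand are not given in the sources used here.

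Here edgeR 4.0.16 (R 4.3.3) kept genes by filterByExpr (minimum count 10), scaled libraries by TMM and tested group with glmQLFit (robust) and glmQLFTest, adjusted by Benjamini-Hochberg over 17592 genes. CPM used TMM-scaled library sizes. Counts also gave exact Poisson intervals, which cover counting error only, since PCR reads without molecular identifiers are not independent molecules. Ligand values were also set against each other by exact permutation, two-sided. Exon lengths, positions and coding sequences came from GENCODE 29, matched by symbol, and promoters from RefSeq. Alternatives used limma 3.58.1 and DESeq2 1.42.0. Figures used Python 3.11.15 and matplotlib 3.10.9.

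The members and the 15 gene lists (219 genes) were chosen with earlier results of these data known. The genes named are the members, SOX2, the 6 genes nearest to APLNR and 3 nearest to each ligand, up to 3 called genes of smallest p per list, and a set of genes named whatever their values. LYZ, TIE1, EGFL7, ZFP42, POU5F1, NANOG, marker genes at or near 0 counts and the chromosomal neighbours were named in addition. Not every gene of these sets is reported here.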

Additional observations from a re-analysis of the deposited data

How the results depend on the processing

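Alternatives changed the scaling (3 methods), the filter (all genes with a count, or 10 counts in each library), the test (DESeq2's Wald, limma-voom, a replicate block) or left out 1 library. Genes called ranged from 3788 to 5212. APELA stayed lower and called in all 14, from -1.18 to -0.916, and APLNR stayed between 2.37 and 2.45. APLN was called in none of the 13 that kept it, from -1.05 to -0.07, and the filter of 10 counts in every library removed it. The ligand ratio difference was -0.0166 with 0.5 added to both counts and ranged from -1.12 to 0.93 with 1 library left out. Raising the level minimum to an average log2 CPM of at least 4 left 4 of 12 nearest genes. These were RDH10, BGN, LIPG and HDAC9, and the rest averaged below that minimum and could not stay. NDRG1 was at -0.0456 by limma-voom. With 1 library left out, ACKR3 ranged from -0.545 to 0.0257, VEGFA from -0.298 to 0.436, NDRG1 from -0.456 to 0.56 and CA9 from -1.29 to 0.037. Apart from the nearest genes, the cause was not tested for any of these. Same-numbered libraries had correlated deviations of 0.0868, -0.0377 and -0.0311, so the numbers were not taken to pair them. With the replicate block 5177 genes were called, APELA was at -1.04 and APLN at -0.65, and no call of a member changed. Counting error is widest for APLN, at 1 to 12 counts a library.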
